A study of Mus musculus with 4 samples.

Results

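The NF-kappaB subunits and their inhibitors were examined in the chromatin-bound RNA of C2C12 myotubes, the multinucleated muscle cells formed by fusion of this mouse myoblast line. The 10 genes were chosen by symbol: the subunit genes Nfkb1, Nfkb2, Rela and Relb, the IkB genes Nfkbia, Nfkbib, Nfkbie and Nfkbiz, and the inhibitors Tnfaip3 and Tnip1. Each matched 1 row among the 23282 genes of the deposited count table. All cells had been deprived of steroids before treatment. One group (n = 2 libraries) received vehicle, and the other (n = 2 libraries) received 1 µM dexamethasone, a synthetic agonist of the glucocorticoid receptor, both for 2 h. Nuclei were isolated and RNA that stayed with the chromatin was sequenced as a measure of nascent transcription. C2C12 is a single line, labelled as female skeletal muscle, and nothing in the labels says that the libraries came from separate cultures, so p-values measure only the spread between these libraries.

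NF-kappaB is a family of dimeric transcription factors. In resting cells IkB proteins hold the dimers in the cytoplasm. Receptors for cytokines or microbial products activate the IkB kinase complex, which marks the IkB proteins for degradation and lets the dimers reach kappaB sites in DNA. Several inhibitor genes are themselves NF-kappaB targets, which closes a negative feedback loop, and glucocorticoids are known to restrain NF-kappaB signalling. In skeletal muscle the pathway is known for its part in wasting.

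Promoter sequence of 7 of the 10 genes was at hand in the RefSeq table (build GRCm38.p6), in 10 windows that run from 250 bases before to 50 bases after an annotated start. Nfkb1, Relb and Nfkbiz were not in that table. The windows were searched on both strands for the degenerate kappaB consensus and for the palindromic glucocorticoid response element. The kappaB consensus was found in 7 of the 10 windows, of 5 genes (Nfkbia, Nfkbie, Tnfaip3, Tnip1 and Nfkb2), against 8.46% of all 32851 windows in the table. Nfkb2 accounts for 3 of those windows, of which a pair overlap and share a match. The windows of Nfkbib and Rela held no match. A palindromic glucocorticoid response element was found in none of the 10 windows, against 0.475% of all windows, and its half-site AGAACA in 1 window, of Tnfaip3, against 19.0% of all windows. These matches describe letters in short windows and say nothing of binding. The 250 bases before the start of the inhibitor gene with the largest change, Nfkbia, and of 3 inhibitor genes that share the kappaB match are shown, 5′ to 3′, with the matches in capitals. Where matches overlap, as in Tnip1, the capitals run through them.
Nfkbia, chr12:55492648-55492897, minus strand: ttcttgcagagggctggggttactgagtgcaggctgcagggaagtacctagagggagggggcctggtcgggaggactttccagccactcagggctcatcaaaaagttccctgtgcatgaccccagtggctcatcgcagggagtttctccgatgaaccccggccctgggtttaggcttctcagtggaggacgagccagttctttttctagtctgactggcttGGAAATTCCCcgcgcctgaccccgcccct
Tnfaip3, chr10:19015411-19015660, minus strand: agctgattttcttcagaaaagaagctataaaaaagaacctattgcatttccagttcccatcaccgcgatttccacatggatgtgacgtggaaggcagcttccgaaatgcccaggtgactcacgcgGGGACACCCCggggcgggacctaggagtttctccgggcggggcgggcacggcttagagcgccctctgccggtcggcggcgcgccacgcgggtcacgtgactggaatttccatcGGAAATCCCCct
Tnip1, chr11:54962941-54963190, minus strand: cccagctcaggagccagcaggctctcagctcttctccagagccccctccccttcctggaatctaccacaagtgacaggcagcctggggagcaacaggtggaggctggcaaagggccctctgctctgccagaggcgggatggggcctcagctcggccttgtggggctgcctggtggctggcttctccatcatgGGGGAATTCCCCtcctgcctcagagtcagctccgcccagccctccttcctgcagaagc
Nfkbie, chr17:45555450-45555699, plus strand: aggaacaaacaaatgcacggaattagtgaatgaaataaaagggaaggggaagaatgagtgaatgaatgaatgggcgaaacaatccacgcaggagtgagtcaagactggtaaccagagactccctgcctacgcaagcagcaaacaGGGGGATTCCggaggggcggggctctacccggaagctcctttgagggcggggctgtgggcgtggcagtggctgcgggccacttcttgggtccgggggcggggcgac
Counted from the start, with negative positions before it, the match in Nfkbia began at -29, that in Nfkbie at -106 and the first of 3 overlapping matches in Tnip1 at -58. Tnfaip3 had matches that began at -125 and -12. The RefSeq build differs from mm9, the build in the submitters' processing notes, and no position was carried over between them.

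The libraries held between 19631435 counts (vehicle replicate 1) and 88596296 counts (dexamethasone replicate 2). Libraries with the same replicate number also stood together. Among 13285 genes with enough counts to test, 31.8% were higher in both libraries numbered 1 than in either numbered 2, and 32.1% were lower. The glucocorticoid target Fkbp5 rose in the libraries labelled dexamethasone, from 21.5 ± 0.0889 (SD, n = 2) to 858 ± 228 (SD, n = 2) scaled CPM (counts relative to the effective library size), with an edgeR adjusted p of 0.0429. The 8 myotube markers were all abundant enough to test. They summed to 122906 and 118466 scaled CPM in the vehicle and dexamethasone libraries numbered 1 and to 42957 and 41927 in those numbered 2. Ttn, the gene of the giant sarcomere protein titin, made up most of each sum, and 6 of the 8 markers were higher in both libraries numbered 1. The 7 immune cell markers summed to 5.93 to 7.13 scaled CPM in vehicle and 5.38 to 7.81 in dexamethasone libraries. Among them Ptprc and Adgre1 had at most 3 counts in any library. Cd68 and Itgam, the only 2 with enough counts to test, had 67 to 273 and 62 to 195. The 6 markers of myoblasts or the cell cycle summed to 56.6 and 61.3 scaled CPM in vehicle and 42.0 and 49.9 after dexamethasone. The 6 endothelial and fibroblast markers summed to 37.1 and 57.7 against 34.0 and 33.3. Among them Kdr had at most 1 count in a library, Cdh5 2 to 17 and Pecam1 21 to 104. The lower sums of both of these lists came mainly from single genes. The myoblast gene Pax7 went from a mean of 35.5 to 20.4 scaled CPM, while the other 5 markers of its list, with the cell cycle genes among them, had fitted changes above 0. Col1a1 went from 35.9 to 18.3 and Dcn from 5.07 to 3.57, while Pdgfra went from 5.21 to 10.6. Of the 4 tested endothelial and fibroblast markers, 3 had fitted changes below 0. Pax7, Col1a1, Dcn and Pdgfra did not pass the adjusted threshold in edgeR's quasi-likelihood test without a block. With the replicate number as a block, 1 of the myoblast and cell cycle markers was called lower (background 5.78%). The same fit called 1 endothelial or fibroblast marker and 1 myotube marker higher (background 6.87%). The part of these markers in the results was not tested. Fewer cells of a type and less RNA per cell cannot be told apart in such bulk libraries.

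The comparison asked how 2 h of dexamethasone changed transcription of the pathway's own parts. Nfkbia, the gene of the classical inhibitor IkB-alpha, had the largest difference of the 10 genes, with a level after dexamethasone 3.35 times that in vehicle. Nfkbiz, the gene of a nuclear IkB protein that binds NF-kappaB on DNA, was next at 1.51 times. The subunit genes Nfkb1, Nfkb2, Rela and Relb had fitted ratios between 0.889 and 1.02. No member passed an adjusted p of 0.05 over all genes in edgeR's quasi-likelihood test with Benjamini-Hochberg adjustment, in which 0.0376% of tested genes were higher and 0.0% lower. Without adjustment, 2 members with a p under 0.05 were higher (background 4.09%) and 0 lower (1.69%), against 5.78% of all tested genes in either direction. DESeq2's Wald test called 1 member, Nfkbia, higher (background 1.78%) and 0 lower (0.399%). The likelihood ratio test of edgeR also called 1, Nfkbia (1.83% higher, 0.339% lower), and limma-voom called 0. With the replicate number as a block Nfkbia and Nfkbiz were called higher (background 6.87%) and 0 members lower (5.78%), and the same 2 with a gene length correction added (6.69% higher, 6.56% lower).

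**Figure D1:**
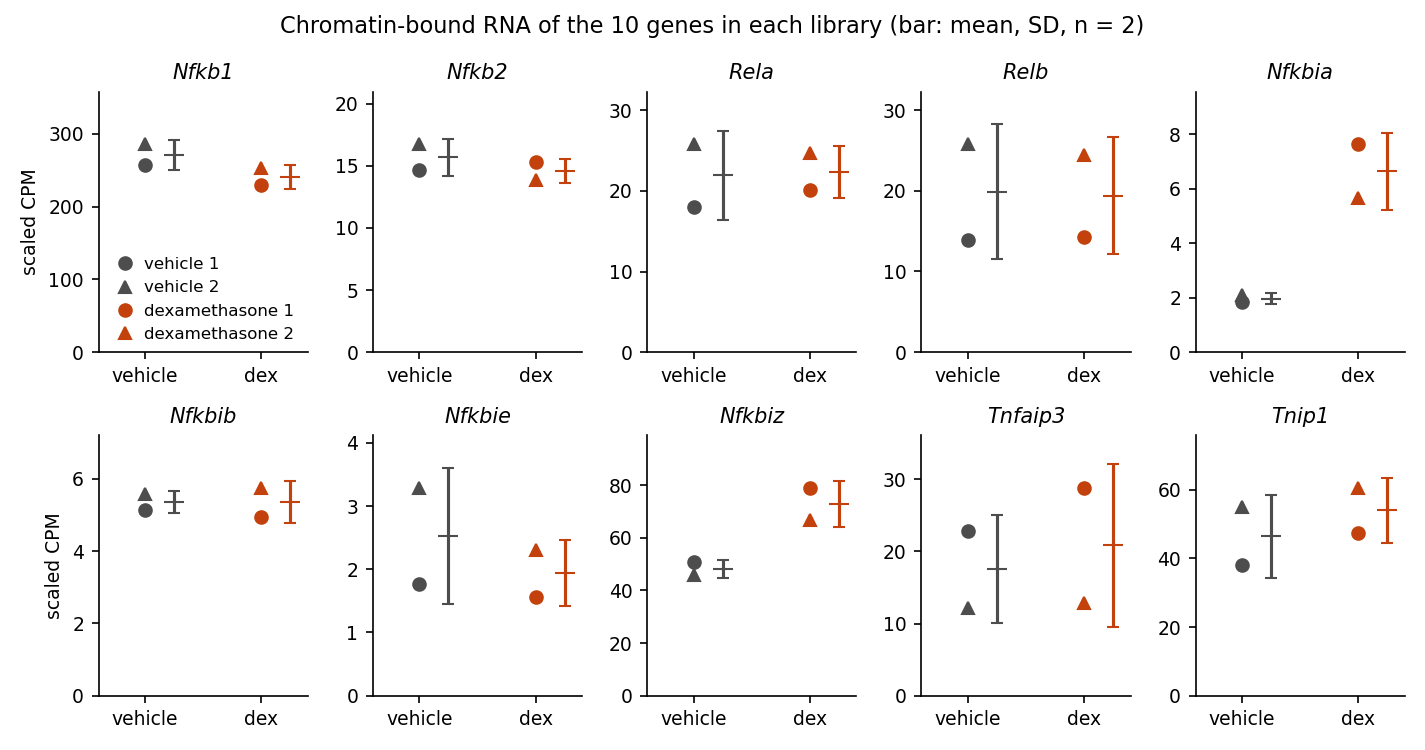
Scaled CPM (y axis, from 0, a scale of its own in each panel) of each gene in the vehicle and dexamethasone libraries (x axis), with circles for replicate 1, triangles for replicate 2 and bars for mean and SD (n = 2). Nfkbia lies between 1.82 and 2.11 in vehicle and between 5.64 and 7.64 after dexamethasone. The 7 genes whose groups overlap, among them Relb, Tnfaip3 and Nfkbie, spread more within a group than between group means.

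Nfkbia (ENSMUSG00000021025) was counted 34 and 80 times in vehicle replicates 1 and 2, and 229 and 527 times with dexamethasone. Scaled, these were 1.82 and 2.11 CPM against 7.64 and 5.64 CPM. Both dexamethasone libraries were high and both vehicle libraries low, with no overlap. The mean went from 1.97 ± 0.201 to 6.64 ± 1.41 scaled CPM (SD, n = 2 each). The fitted log2 fold change was 1.74 (SE 0.278, 95% interval 1.01 to 2.48). The edgeR unadjusted p was 0.00209 and the adjusted p 0.201, and it ranked 137 by p among the 13285 genes. Between libraries of the same replicate number the log2 ratio was 2.07 for replicate 1 and 1.42 for replicate 2. Counting error alone was wide in the shallow vehicle replicate 1 (95% Poisson interval 1.26 to 2.55 scaled CPM) and narrower in dexamethasone replicate 1 (6.68 to 8.70) and dexamethasone replicate 2 (5.17 to 6.15). These intervals cover counting error only. The adjusted p fell to 0.00126 in DESeq2's Wald test and 0.000768 in the likelihood ratio test, and was 0.00240 with the replicate number as a block.

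Nfkbiz (ENSMUSG00000035356) was counted 944 and 1736 times in vehicle, and 2370 and 6230 times with dexamethasone. Scaled values were 50.6 and 45.7 CPM in vehicle against 79.1 and 66.7 CPM after dexamethasone. The groups did not overlap, and the gap between them exceeded the spread within either. The fitted log2 fold change was 0.60 (SE 0.152, 95% interval 0.19 to 1.00), with an edgeR unadjusted p of 0.0133 and an adjusted p of 0.460. Within numbers, the log2 ratio was 0.64 between the replicate 1 libraries and 0.54 between the replicate 2 libraries. With the replicate number as a block the adjusted p was 0.00202, and 0.00159 with a gene length correction added. DESeq2's Wald test, the likelihood ratio test and limma-voom did not call it.

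For the other IkB genes the values of the groups overlapped. Nfkbib (ENSMUSG00000030595), the gene of IkB-beta, had 5.15 and 5.59 scaled CPM in vehicle and 4.94 and 5.76 after dexamethasone, so that the dexamethasone values enclosed the vehicle values. Its log2 fold change was -0.0039 (SE 0.214, 95% interval -0.57 to 0.56; edgeR adjusted p 1.00). Exons of Nfkbib overlap those of Sirt2 on the opposite strand in GENCODE M21. Sirt2 had 650 to 3746 counts, and whether strand was used in counting is not given in the sources used here. Exons of Nfkb2 likewise overlap those of AC114539.1 and of Psd. Psd was at 0 counts in all 4 libraries, which is not read as absence of transcription. Its strand of chromosome 19 holds a run of 146 genes at 0. Nfkbie (ENSMUSG00000023947), the gene of IkB-epsilon, had the lowest level per exon length, and was counted 33 and 125 times in vehicle, and 47 and 216 times with dexamethasone. Its scaled values of 1.77 and 3.29 CPM in vehicle overlapped the 1.57 and 2.31 CPM after dexamethasone. Its log2 fold change of -0.39 was the lowest of the 10, with an interval of -1.54 to 0.76 (SE 0.434; edgeR adjusted p 1.00). As a ratio this interval ran from 0.345 to 1.69.

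Tnfaip3 and Tnip1 encode partners in a ubiquitin-based brake upstream of the IkB kinases: the first is a ubiquitin-editing enzyme and the second a ubiquitin-binding protein that interacts with it. Tnfaip3 (ENSMUSG00000019850) had 22.8 and 12.2 scaled CPM in vehicle replicates 1 and 2, and 28.9 and 12.8 in dexamethasone replicates 1 and 2. Here the replicate 1 libraries of both groups were high and the replicate 2 libraries low. Its log2 fold change was 0.25 (SE 0.507, 95% interval -1.09 to 1.60; edgeR adjusted p 1.00), with a log2 ratio of 0.34 between the replicate 1 libraries and 0.07 between the replicate 2 libraries. Tnip1 (ENSMUSG00000020400) showed the opposite order by replicate number, with 38.0 and 55.1 scaled CPM in vehicle replicates 1 and 2 and 47.4 and 60.7 after dexamethasone. Its log2 fold change was 0.21 (SE 0.245, 95% interval -0.43 to 0.86; edgeR adjusted p 1.00), and the log2 ratio was 0.32 and 0.14 within replicates 1 and 2.

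Among the subunits, Nfkb1 (ENSMUSG00000028163), whose product is processed into a DNA-binding subunit without a transactivation domain, was the most abundant member. It had 257 and 286 scaled CPM in vehicle and 230 and 253 after dexamethasone. Both dexamethasone values lay just below both vehicle values, and the log2 fold change was -0.17 (SE 0.135, 95% interval -0.53 to 0.19; edgeR adjusted p 1.00). Rela (ENSMUSG00000024927), the transactivating subunit of the classical dimer, had 18.0 and 25.8 scaled CPM in vehicle and 20.1 and 24.7 after dexamethasone. The vehicle values enclosed the dexamethasone values, with a log2 fold change of 0.03 (SE 0.240, 95% interval -0.61 to 0.66). Nfkb2 (ENSMUSG00000025225) and Relb (ENSMUSG00000002983) encode the pair of subunits of the non-canonical pathway. Nfkb2 had 14.6 and 16.8 scaled CPM in vehicle and 15.3 and 13.9 after dexamethasone, which overlapped (log2 fold change -0.11, SE 0.168, 95% interval -0.56 to 0.34). Relb had 13.9 and 25.8 scaled CPM in vehicle and 14.2 and 24.5 after dexamethasone. Its replicate 2 libraries were high and its replicate 1 libraries low in both groups, and the interval of its log2 fold change of -0.04 ran from -1.13 to 1.05 (SE 0.412). As ratios, these intervals allow 0.694 to 1.14 times the vehicle level for Nfkb1, 0.681 to 1.26 for Nfkb2, 0.656 to 1.58 for Rela and 0.457 to 2.07 for Relb. The ratio of 3.35 fitted for Nfkbia lies above all 4 of these intervals. Its own interval, 2.01 to 5.58, overlaps that of Relb, and the difference between genes was not tested.

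**Figure D2:**
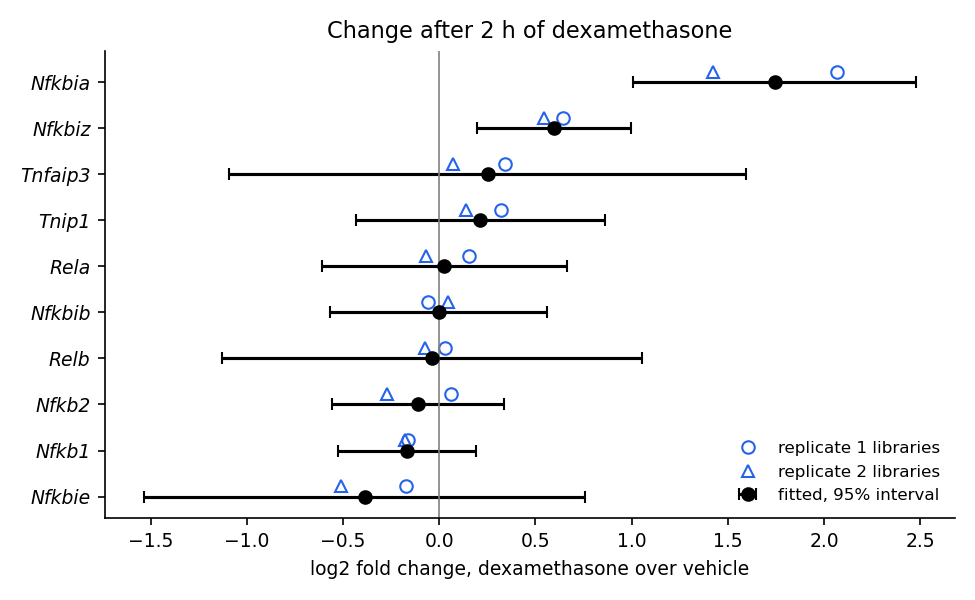
Log2 fold change of dexamethasone over vehicle (x axis) for each gene, with the fitted value and its 95% interval in black and the ratio between libraries of the same replicate number in blue. The intervals of Nfkbia (1.01 to 2.48) and Nfkbiz (0.19 to 1.00) lie above 0, without adjustment for the number of genes, and the other 8 hold 0.

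Over the 10 members 5 fitted log2 fold changes were above 0 and 5 below. Their median was 0.01, against -0.0016 over all tested genes. The dexamethasone libraries lay clear of the vehicle libraries in 3 of the 10, of which Nfkbia and Nfkbiz were higher (background 15.0%) and Nfkb1 lower (12.9%). Those 3 of 10 stand against 27.9% of all tested genes in either direction, so the count is close to the background. The fitted log2 fold change of Nfkbia stood at the 99.2 percentile of all tested genes, and that of Nfkbiz at the 94.9 percentile. In 6 of the 10 the libraries separated by replicate number instead, against 63.9% of all tested genes. The myotube markers also separated this way, with a median absolute log2 difference of 1.26 against 0.30 for the 10 members and 0.28 for all tested genes, and their part in the members' split was not tested. Tnfaip3 was higher in replicate 1, by 1.03 on the log2 scale over both groups. Relb (-0.83), Nfkbie (-0.71), Tnip1 (-0.45), Rela (-0.41) and Nfkbib (-0.17) were lower there, as log2 differences of replicate 1 from replicate 2. Nfkbia (0.11) and Nfkbiz (0.20) differed less by number than by treatment. For Nfkbia the value averages opposite orders, with replicate 1 below replicate 2 in vehicle and above it after dexamethasone.

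**Figure D3:**
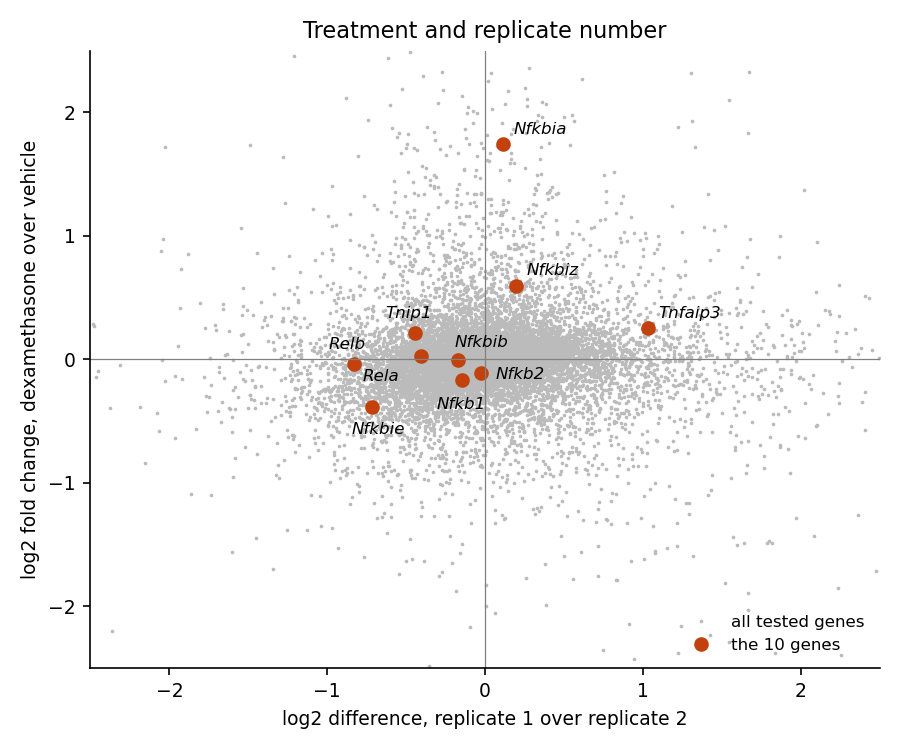
Log2 difference of replicate 1 from replicate 2, averaged over both groups (x axis), against the log2 fold change of dexamethasone over vehicle (y axis), for all tested genes in grey and the 10 genes in orange; 113 genes lie outside the drawn range. Nfkbia lies far from 0 only on the y axis and Tnfaip3 (1.03) mainly on the x axis.

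Levels were compared between genes per kilobase of annotated exon, since longer genes collect more counts. This assumes counting over exons, which is not given in the sources used here. In vehicle Nfkb1 led with 22.5 ± 1.72 (SD, n = 2) scaled CPM per kb. It was followed by Tnip1 (13.2 ± 3.42), Nfkbiz (9.60 ± 0.689), Rela (7.14 ± 1.80), Relb (5.12 ± 2.16), Nfkb2 (3.43 ± 0.326), Nfkbib (2.48 ± 0.142) and Tnfaip3 (2.42 ± 1.04), all with n = 2. Nfkbia (1.22 ± 0.125) and Nfkbie (0.832 ± 0.354) were lowest. Neighbours in this order whose vehicle libraries overlapped were Rela and Relb, Relb and Nfkb2, and Nfkbib and Tnfaip3. After dexamethasone Nfkbia stood at 4.13 ± 0.877 scaled CPM per kb (SD, n = 2), a move from rank 9 to rank 6 among the 10, while the first 5 ranks kept their order. Set beside the subunits it inhibits, the Nfkbia level per length was 19.3% and 15.6% of that of Rela in vehicle and 72.6% and 43.7% after dexamethasone. Against Nfkb1 it was 5.32% and 5.52% in vehicle and 24.9% and 16.7% after dexamethasone. These percentages compare chromatin-bound RNA and not protein, and the time each RNA stays with the chromatin was not measured.

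**Figure D4:**
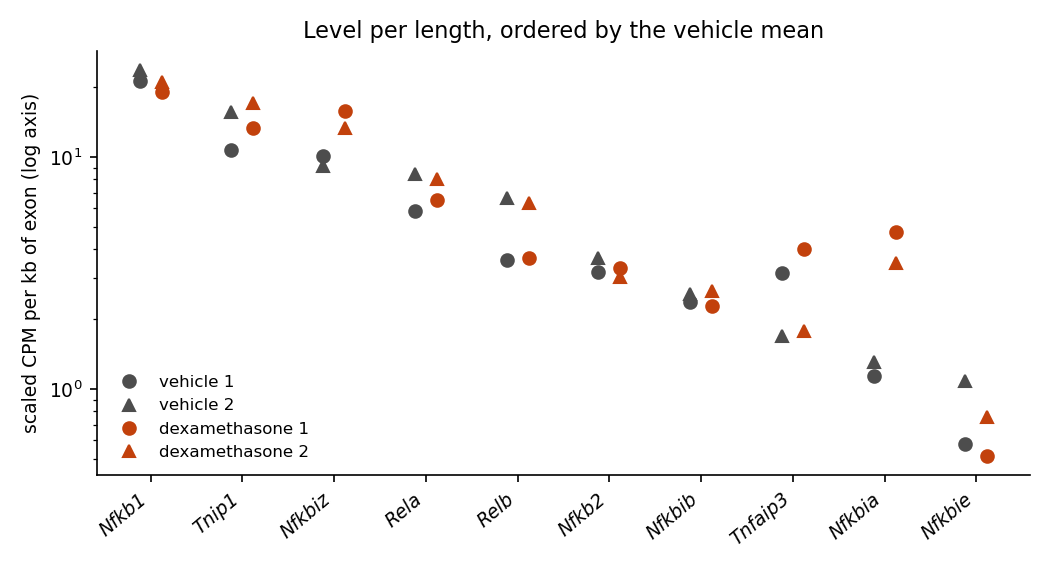
Scaled CPM per kb of exon (y axis, log scale) in each library, with genes on the x axis in the order of their vehicle mean, circles for replicate 1 and triangles for replicate 2. Nfkbia moves from just above Nfkbie in vehicle (1.22 against 0.832) to above Nfkb2 after dexamethasone (4.13 against 3.18), and Nfkbiz from 9.60 to 14.5.

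The rest of the pathway was described from 4 lists of receptors and adaptors, upstream kinases, other subunits and brakes, and target genes, 85 genes in all. Of these, 68 had enough counts to test, and 0 passed an adjusted p of 0.05 in edgeR's quasi-likelihood test. Without adjustment, 3 were higher (background 4.09%) and 4 lower (1.69%) at the same threshold. DESeq2's Wald test and the likelihood ratio test each called 2 higher (Map3k8 and Bcl2l1) and 1 lower (Cxcl5), against backgrounds of 1.78% and 1.83% higher and 0.399% and 0.339% lower, and limma-voom called 0. A replicate block gave 5 higher (background 6.87%) and 11 lower (5.78%). Its calls included Map3k14 (adjusted p 0.00114), Bcl3 (0.00500), Irf1 (0.00976), Ptgs2 (0.0116), Tnfrsf12a (0.0185) and Tnfrsf1b (0.0223), all lower. Also called were Traf2 (0.0362), lower, and N4bp1 (0.0184) and Ripk1 (0.0326), higher. The adjusted p-values given for these genes from here on are without the block. Libraries of the 2 groups did not overlap in 9 higher and 12 lower genes of the 68, against 15.0% and 12.9% of all tested genes.

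Of 22 receptors and adaptors 20 were tested, with a median log2 fold change of -0.10. The TNF receptor gene Tnfrsf1b had 45.0 and 55.2 scaled CPM in vehicle and 37.4 and 37.2 after dexamethasone (log2 fold change -0.43, SE 0.158; edgeR unadjusted p 0.0472, adjusted p 0.842). Tnfrsf12a, the receptor gene for the cytokine TWEAK, differed by -0.46 (SE 0.215) and the adaptor gene Traf2 by -0.26 (SE 0.165) on the log2 scale, with dexamethasone libraries below vehicle libraries. Ripk1, a kinase that relays TNF receptor signals, differed by 0.27 (SE 0.125), with the dexamethasone libraries above. All 3 had an edgeR adjusted p of 1.00. Myd88, the adaptor of most Toll-like receptors, was listed at 0 in all 4 libraries. It belongs to a run of 371 genes along 1 strand of chromosome 9 with no count in any library, and the 0 is not read as absence of transcription.

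Of 11 kinases 10 were tested, with a median of -0.03. Map3k8, a kinase that sits in a complex with the Nfkb1 precursor, had 6.60 and 7.22 scaled CPM in vehicle and 17.0 and 18.2 after dexamethasone. The dexamethasone libraries were far above the vehicle libraries in both replicates. For Map3k8 the log2 fold change was 1.35 (SE 0.169, 95% interval 0.90 to 1.79), with an edgeR unadjusted p of 0.000772 and an adjusted p of 0.135 (0.0000550 in DESeq2's Wald test). Map3k14, the kinase that starts the non-canonical pathway, had 175 and 256 scaled CPM in vehicle and 115 and 171 after dexamethasone. Its log2 fold change was -0.59 (SE 0.287; edgeR adjusted p 1.00), with log2 ratios of -0.60 and -0.58 within replicates 1 and 2. Ikbkg, the regulatory subunit of the IkB kinase complex, differed by 0.17 (SE 0.137). The catalytic subunit gene Chuk was listed at 0 in all libraries, inside a run of 146 such neighbours on 1 strand of chromosome 19, and was not measured here. Its partner Ikbkb had overlapping values and a log2 fold change of -0.09 (SE 0.171).

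Of 22 other subunits, IkB proteins and brakes 20 were tested, with a median of -0.04. Bcl3, a nuclear IkB protein that works with the products of Nfkb1 and Nfkb2, had 5.53 and 7.91 scaled CPM in vehicle and 2.54 and 4.21 after dexamethasone. Both dexamethasone values were below both vehicle values, with a log2 fold change of -0.99 (SE 0.358; edgeR unadjusted p 0.0442, adjusted p 0.815). The remaining subunit gene, Rel, differed by -0.32 (SE 0.179). N4bp1, an inhibitor of NF-kappaB activation, went from 121 ± 15.8 to 159 ± 1.84 scaled CPM (SD, n = 2 each; log2 fold change 0.38, SE 0.143; edgeR adjusted p 0.850). Otulin, a deubiquitinase for linear chains, differed by 0.19 (SE 0.117).

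Of 30 target genes only 18 had enough counts, with a median of -0.27. The others included Tnf, Icam1, Nos2 and Ccl5, each with at most 10 counts in any library. Bcl2l1, which encodes an inhibitor of apoptosis, had 205 and 223 scaled CPM in vehicle and 688 and 552 after dexamethasone (log2 fold change 1.53, SE 0.168; edgeR unadjusted p 0.000428, adjusted p 0.123). The chemokine gene Cxcl5 had 2.79 and 1.79 scaled CPM in vehicle against 0.434 and 0.632 after dexamethasone (log2 fold change -2.06, SE 0.425; edgeR adjusted p 0.321). The prostaglandin synthase gene Ptgs2 had 22.6 and 21.3 scaled CPM in vehicle against 16.9 and 15.3 (-0.45, SE 0.152; edgeR adjusted p 0.740), and the transcription factor gene Irf1 had 5.53 and 9.59 against 3.60 and 4.88 (-0.83, SE 0.355; edgeR adjusted p 0.962). These 4 were named as those with the lowest edgeR unadjusted p among the target genes whose libraries did not overlap between groups. Of the 18 tested target genes, 2 were clear of overlap and higher (background 15.0%) and 4 lower (12.9%), the other two being Cflar, higher, and Ier3, lower.

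**Figure D5:**
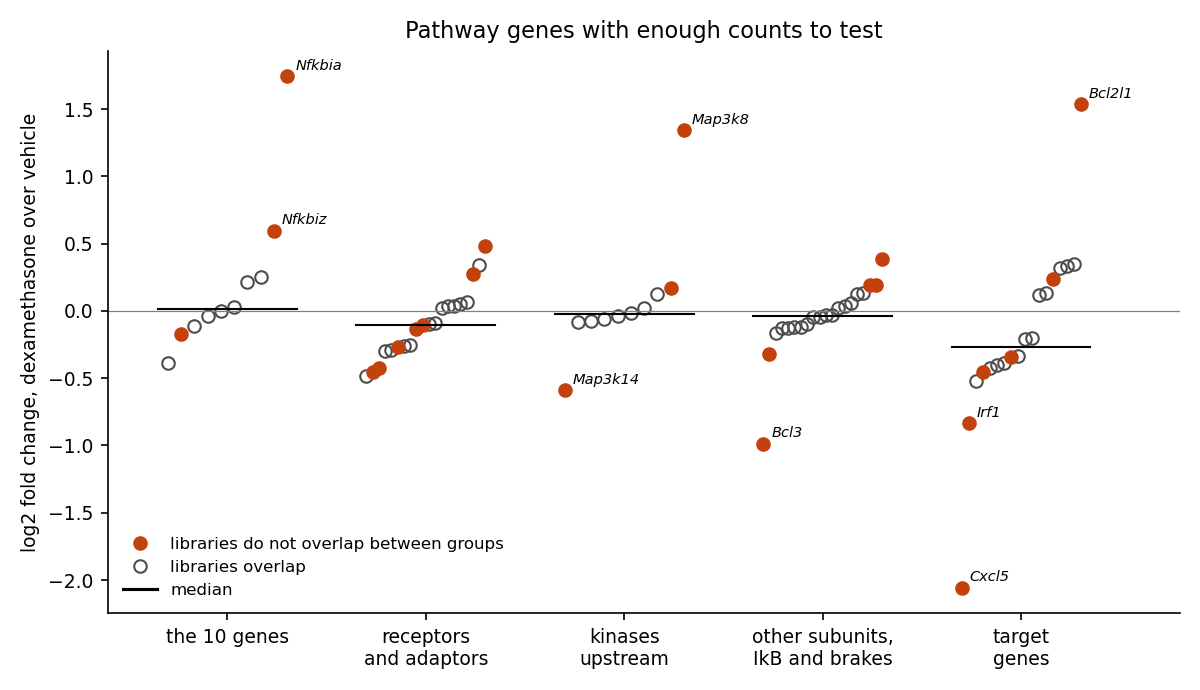
Log2 fold change of dexamethasone over vehicle (y axis) for the 10 genes and the tested genes of each list (x axis), filled where libraries do not overlap between groups, with a line at each median. Nfkbia (1.74), Map3k8 (1.35) and Bcl2l1 (1.53) lie above the rest and Cxcl5 (-2.06) below, while list medians lie between -0.27 and 0.01.

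The genes whose pattern over the 4 libraries was most like that of Nfkbia were sought among 9238 genes with at least 100 counts in every library, by the distance between centred log2 CPM values. The nearest were Dcbld2 (distance 0.0958), Foxred2 (0.164) and Jcad (0.199), against a median distance of 1.78. Dcbld2 had 48.0 and 51.5 scaled CPM in vehicle and 182 and 135 after dexamethasone, Foxred2 8.37 and 10.9 against 34.0 and 25.6, and Jcad 59.7 and 65.8 against 266 and 208. In each, as in Nfkbia, dexamethasone replicate 1 was highest, which the choice by distance over the same libraries favours. Nearest to Nfkbiz were Ube2j1 (distance 0.0424), Nrcam (0.0437) and Rnf122 (0.0554), against a median of 0.695. With 4 libraries such likeness is a description only.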

How the data were processed

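Raw read counts per gene, deposited by the authors in 1 table for 4 libraries, were used as they stood. Per the submitters' processing notes, TopHat2 2.0.13, SAMtools 1.1, HTSeq 0.6.1 and DESeq2 1.18.1 were used with build mm9; the annotation, counting mode and use of strand are not given in the sources used here. The labels name both a stranded total RNA kit and a stranded mRNA kit. Of 23333 rows, 51 repeated an earlier row and were dropped. Genes were filtered with filterByExpr (minimum count 10, minimum total 15), scaled by TMM and tested with edgeR 4.0.16 (R 4.3.3) with a quasi-likelihood F test, whose only term was treatment, with Benjamini-Hochberg adjustment at 0.05 over 13285 genes. There were 2 residual degrees of freedom and 2.56 prior ones. SE is the fitted change over the root of its F statistic. Exon lengths came from GENCODE M21, matched on the Ensembl identifier. Scripts were tested on simulated data.

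Alternatives were RLE, upper quartile and library size scaling, 2 other count filters, DESeq2 1.42.0, limma-voom (limma 3.58.1), the likelihood ratio test, a replicate block alone and with a length correction, and leaving out each library. Members and lists were chosen with earlier results of these data known. Named genes were all members; from each list, genes past the threshold and up to 4 with the lowest p among those without overlap and counted at least 20 times in both libraries of the group with the higher level; the 3 genes nearest to Nfkbia and to the most changed member with at least 100 counts in each library; and Fkbp5, Tsc22d3 and Nr3c1. Others were named after their values were seen.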

Additional observations from a re-analysis of the deposited data

How the results depend on the processing

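Depth limits the scarce members: Nfkbia rests on 34 counts and Nfkbie on 33 in vehicle replicate 1. Against 5 called genes and 0 called members, testing every gene with a count gave 23 genes, DESeq2's Wald test 289 genes and 1 member, the likelihood ratio test 288 and 1, and limma-voom 0 genes; the member was Nfkbia. The cause was not tested. The labels do not say that replicate numbers mark a shared day or batch, and the gene-wise difference of replicate 1 from 2 in one group correlated with that in the other (r = 0.734). A replicate block gave 1681 genes and 2 members, Nfkbia and Nfkbiz, and 1760 genes and the same 2 with a gene length correction. Leaving out 1 library each, with the lone library assumed to vary like the other group, called 4 to 193 genes (193 when vehicle replicate 2 was left out, 24 for dexamethasone replicate 1, 28 for dexamethasone replicate 2) and 0 members. The median of the members ran from -0.13 (without vehicle replicate 1) to 0.24 (without vehicle replicate 2). In these fits Nfkbia ran from 1.52 to 1.95 and Nfkbiz from 0.48 to 0.71, and 6 members changed sign: Rela (-0.20 to 0.32), Relb (-0.49 to 0.49), Nfkbib (-0.12 to 0.11), Nfkbie (-0.75 to 0.15), Tnfaip3 (-0.44 to 0.77) and Tnip1 (-0.027 to 0.52). With all libraries, Rela was at -0.0173 with library size only, and Nfkbib at 0.0106 without a filter, 0.00831 in limma-voom and 0.00322 with the replicate block. Of 340 refits of 34 named genes with all libraries, 272 kept direction and side of the threshold, 63 became stronger, 1 weaker (Fkbp5 in limma-voom, adjusted p 0.0598) and 4 reversed. Tsc22d3 stayed between 2.68 and 2.82 and Nr3c1 between -1.07 and -1.01.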
